A study of Mus musculus with 2 samples.

Results

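Apolipoprotein-rich enterocytes without Fabp6 are absorptive cells of the intestinal epithelium whose messenger RNA is rich in apolipoproteins and carries little or none of the ileal bile acid binding protein Fabp6. They were picked out of 2 droplet libraries by a rule on each cell barcode, so they were chosen by their own apolipoprotein, Fabp6, goblet and hormone counts. A barcode was kept if it had at least 500 genes, if Apoa1, Apoa4 and Apoc3 made up 2% or more of its unique molecular identifiers (UMIs, the counts of single captured transcripts), and if it held 0 to 2 Fabp6 UMIs. Tff3 plus Spink4, which mark goblet cells, had to stay under 3% of UMIs, and 8 hormone genes of enteroendocrine cells had to stay under 2%. The rule found 849 cells among 2492 barcodes, 138 of 1014 in the library with mutant Casp8 and 711 of 1478 in the library without the mutation.

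Enterocytes line the villi and take up dietary fat, sugar, peptides and vitamins through a brush border of microvilli. Fatty acids and monoglycerides are carried inside the cell by small binding proteins, are joined again into triglyceride, and leave towards the lymph in chylomicrons, particles built on apolipoprotein B and coated with apolipoproteins A-I, A-IV and C-III. Fabp1, Fabp2 and Rbp2 bind fatty acids and retinol in enterocytes, while Fabp6 marks the ileum, where bile acids are recovered.

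The Casp8-mutant library came from 1 C57BL/6 embryo of stage E18.5 that was homozygous for the C362A substitution of caspase-8 (Casp8 C362A/C362A) and also lacked Mlkl (Mlkl -/-). The Mlkl-null library came from 1 C57BL/6 embryo of the same age that lacked Mlkl (Mlkl -/-) and carried no labelled change in Casp8. Caspase-8 is the protease that starts death-receptor apoptosis and holds back necroptosis, and Mlkl is the protein that carries necroptosis out, so neither embryo could run necroptosis through Mlkl. Dissociation took 30 min in 0.5 mL of papain solution, and each 10x Chromium 3' v2 library was loaded with about 10000 cells. The labels name the whole intestine in the protocol and the small intestine as the source, so the gut region of the cells is not settled. Tags from the 3' end of a transcript do not read the C362A substitution, and Casp8 had 48 UMIs in the Casp8-mutant cells and 208 in the Mlkl-null cells. Mlkl had 1 UMI in the cells of each library.

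With 1 embryo per genotype there was no test of a difference between genotypes. Levels below are the summed UMIs of a gene per 1 M UMIs of a group of cells (CPM), and each 95% interval covers counting error only, not the variation between embryos. The library totals were 2804929 UMIs in the Casp8-mutant library and 6290008 in the Mlkl-null library, with a median of 1797.5 and 3654 UMIs per barcode. The embryos also differed in sex, since Xist had 630 UMIs in the Casp8-mutant cells and 1 in the Mlkl-null cells, while Ddx3y had 0 and 97, so genotype, sex, embryo and library cannot be told apart. In summed counts, less RNA per cell and a different mix of cells within the group cannot be told apart either. The libraries shared 2 barcode sequences, and neither belonged to an apolipoprotein-rich cell.

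These enterocytes made up a smaller share of the Casp8-mutant library. They were 15.8% (95% interval 13.4 to 18.4, Clopper-Pearson) of 875 barcodes with at least 500 genes in the Casp8-mutant library and 49.4% (46.8 to 52.0) of 1439 in the Mlkl-null library. Of barcodes in which a list of 12 general epithelial genes reached 0.5% of UMIs, they were 21.9% (18.53 to 25.5) of 567 in the Casp8-mutant library and 53.7% (50.7 to 56.7) of 1074 in the Mlkl-null library. The cells themselves were shallower in the Casp8-mutant library, with a median of 1321.5 UMIs (976 to 4519) and 734.5 genes, against 3289 UMIs (1247 to 8576) and 1657 genes in the Mlkl-null library. The minimum of 500 genes therefore sat close to the Casp8-mutant cells, 22 of which had under 600 genes, against 0 of the Mlkl-null cells. Just inside the apolipoprotein limit, at 2 to 2.5%, lay 19 Casp8-mutant and 82 Mlkl-null cells, and just outside it, at 1.5 to 2%, lay 22 and 76 barcodes that met the other limits. Fabp6 was at 0 UMIs in 104 Casp8-mutant and 608 Mlkl-null cells, at 1 in 24 and 86, and at 2 in 10 and 17, while 2 and 9 barcodes with 3 UMIs fell outside.

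Fabp2 and Rbp2, enterocyte markers that the rule did not use, were present in most of these cells, while some other enterocyte genes were not. With cells cut down at random to 1000 UMIs apiece, Fabp2, the intestinal fatty acid binding protein, was detected in 84.6% of 130 Casp8-mutant cells and 98.5% of 711 Mlkl-null cells. Rbp2, the retinol binding protein of enterocytes, was detected in 82.3% and 99.4%. The same shares in barcodes that were at least 50% haemoglobin, which should lack both genes, were 13.01% and 48.1% for Fabp2 and 9.76% and 51.9% for Rbp2, at median depths of 1364 and 2733.5 UMIs. Among other enterocyte genes, Mttp was detected after thinning in 68.5% of Casp8-mutant and 80.2% of Mlkl-null cells, and Fabp1 in 59.2% and 98.9%. Apob was detected in 43.1% and 50.5%, and Lct in 19.2% and 56.1%. Epcam, a general epithelial adhesion molecule, was detected in 67.7% of Casp8-mutant and 53.6% of Mlkl-null cells, against 10.6% and 5.77% of haemoglobin barcodes. Hepatocytes and yolk sac also make apolipoproteins. The hepatocyte marker Alb had 1 UMI in the cells of each library, and the hepatocyte list summed to 72.7 CPM in Casp8-mutant cells and 64.2 CPM in Mlkl-null cells. A list of yolk sac and fetal plasma proteins summed to 1629 and 927 CPM. Of that list Afp was detected after thinning in 36.9% of Casp8-mutant and 21.7% of Mlkl-null cells, and Ttr in 40.8% and 22.9%, against 2.44% and 15.4% of haemoglobin barcodes for Afp and 3.25% and 1.92% for Ttr. The source of this RNA was not tested.

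**Figure D1:**
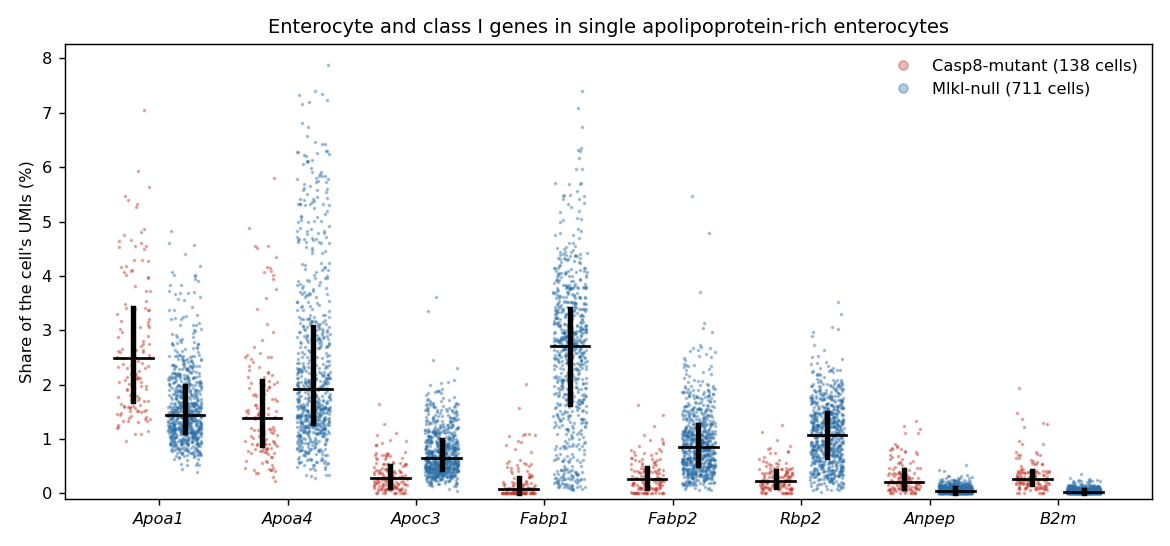
Share of each cell's UMIs taken by 8 genes, as a percent, in 138 Casp8-mutant and 711 Mlkl-null apolipoprotein-rich enterocytes. Each point is a cell, the black line is the median and the bar spans the interquartile range. The median of Fabp1 was 0.0892% in Casp8-mutant cells and 2.70% in Mlkl-null cells, while that of B2m was 0.274% and 0.0336%.

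The 3 apolipoproteins that chose the cells were present in a different mix, given here as a description. Their genes lie side by side on chromosome 9 (GRCm38), with Apoa1 at 46228580 to 46230466, Apoc3 on the other strand at 46232933 to 46235636 and Apoa4 at 46240696 to 46243459. The summed share was alike, at a median of 4.14% of UMIs (2.02 to 10.3) per Casp8-mutant cell and 3.99% (2.004 to 13.9) per Mlkl-null cell. Apoa1, the scaffold of high density lipoprotein, took 58.2% (57.2 to 59.2) of the 3-gene total in Casp8-mutant cells and 34.96% (34.7 to 35.3) in Mlkl-null cells. Apoa4, which coats chylomicrons and is induced by fat, took 34.3% and 48.7%, and Apoc3, an inhibitor of lipoprotein clearance, took 7.48% and 16.3%. Apoa1 exceeded Apoa4 in 117 of 138 Casp8-mutant cells (84.8%) and in 172 of 711 Mlkl-null cells (24.2%), so the order of the pair was opposite in most cells of the libraries. The levels were 26365 and 15005 CPM for Apoa1, 15546 and 20895 CPM for Apoa4, and 3390 and 7016 CPM for Apoc3 in Casp8-mutant and Mlkl-null cells.

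The promoters below are printed for 2 rule genes, for the lipid-binding markers Fabp1, Fabp2 and Rbp2, which were over 2-fold lower in Casp8-mutant cells, and for Isg15, among the 12 leading genes that were higher there. The 300 bases run from 250 bases before to 50 bases after the RefSeq start of each gene, 5' to 3' on the strand of the gene, on GRCm38.p6. Gene coordinates elsewhere in the text are from GENCODE M21, whose starts differ from these for some genes, such as Apoa4. Capitals mark TGNNCTTTG on either strand, a shortened form of the site bound by HNF4-type nuclear receptors, which drive many enterocyte genes, or a pair of GAAA repeats on one strand with 2 bases between them, a form of the interferon response element. Of 27025 mouse promoters of this length, 6.37% hold TGNNCTTTG and 3.49% hold the spaced GAAA pair. The motifs were chosen with these sequences in view, so a match is a description and not a binding site.
Apoa1 promoter, chr9:46228380-46228679, plus strand: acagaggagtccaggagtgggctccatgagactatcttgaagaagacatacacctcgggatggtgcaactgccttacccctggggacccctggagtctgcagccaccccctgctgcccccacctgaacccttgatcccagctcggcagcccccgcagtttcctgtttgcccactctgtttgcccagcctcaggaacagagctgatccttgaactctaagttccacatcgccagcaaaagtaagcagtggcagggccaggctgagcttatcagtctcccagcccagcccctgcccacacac
Apoa4 promoter, chr9:46240594-46240893, plus strand: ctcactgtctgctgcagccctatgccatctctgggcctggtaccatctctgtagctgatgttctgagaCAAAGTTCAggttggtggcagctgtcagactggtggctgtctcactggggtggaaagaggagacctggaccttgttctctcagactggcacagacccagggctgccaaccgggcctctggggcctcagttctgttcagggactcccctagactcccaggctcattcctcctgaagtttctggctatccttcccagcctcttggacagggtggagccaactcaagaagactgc
Fabp1 promoter, chr6:71199629-71199928, plus strand: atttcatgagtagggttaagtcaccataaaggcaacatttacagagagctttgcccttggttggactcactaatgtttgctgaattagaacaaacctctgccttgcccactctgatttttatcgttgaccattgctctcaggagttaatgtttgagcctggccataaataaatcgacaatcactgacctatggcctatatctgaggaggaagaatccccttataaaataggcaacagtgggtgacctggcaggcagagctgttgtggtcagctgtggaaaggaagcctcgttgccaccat
Fabp2 promoter, chr3:122894822-122895121, plus strand: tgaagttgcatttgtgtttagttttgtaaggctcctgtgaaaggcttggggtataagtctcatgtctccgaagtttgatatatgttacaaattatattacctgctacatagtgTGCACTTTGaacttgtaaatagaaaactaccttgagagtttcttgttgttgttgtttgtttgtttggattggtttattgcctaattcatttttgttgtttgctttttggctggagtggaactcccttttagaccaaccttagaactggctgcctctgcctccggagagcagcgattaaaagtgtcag
Rbp2 promoter, chr9:98490287-98490586, plus strand: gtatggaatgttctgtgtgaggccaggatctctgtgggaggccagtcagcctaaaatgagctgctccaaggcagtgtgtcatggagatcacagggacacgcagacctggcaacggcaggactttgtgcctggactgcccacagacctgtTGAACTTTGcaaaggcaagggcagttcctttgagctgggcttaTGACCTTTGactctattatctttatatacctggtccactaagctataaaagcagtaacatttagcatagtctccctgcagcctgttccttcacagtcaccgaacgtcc
Isg15 promoter, chr4:156200769-156201068, minus strand: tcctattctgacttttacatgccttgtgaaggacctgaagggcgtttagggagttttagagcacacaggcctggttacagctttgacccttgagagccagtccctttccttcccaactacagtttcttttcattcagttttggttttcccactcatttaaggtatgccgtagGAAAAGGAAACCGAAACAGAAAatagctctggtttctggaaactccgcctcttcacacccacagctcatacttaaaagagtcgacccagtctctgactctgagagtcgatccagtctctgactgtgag
TGNNCTTTG occurred once in the Apoa4 and Fabp2 promoters and at 2 places in the Rbp2 promoter, and it was not in these windows of Apoa1, Fabp1 or Isg15. The spaced GAAA pair occurred at 3 overlapping places in the Isg15 promoter, between 78 and 66 bases before the start, and in none of the other 5. No promoter is shown for Apoc3.

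Fatty acid binding proteins were lower in Casp8-mutant cells. Fabp1, the liver-type fatty acid binding protein that is abundant in the upper intestine (chr6:71199827-71205023), had 433 UMIs in Casp8-mutant cells and 63262 in Mlkl-null cells. That is 2100 CPM against 26212 CPM, a level 12.5-fold lower (95% interval 11.4 to 13.8). Fabp1 was at 0 UMIs in 50 of 138 Casp8-mutant cells (36.2%) and in 0 of 711 Mlkl-null cells, and the highest Casp8-mutant cell, at 2.01%, lay below the Mlkl-null median of 2.70%. The haemoglobin barcodes, which measure free RNA, held 71.1 CPM of Fabp1 in the Casp8-mutant library and 1812 CPM in the Mlkl-null library, so both cell groups were above their own library's free RNA. Fabp2 was 2.75-fold lower (2.55 to 2.97), at 3356 CPM in Casp8-mutant cells and 9231 CPM in Mlkl-null cells. Their medians per cell were 0.259% and 0.862%, and the cells of the libraries overlapped.

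Of 17 genes for fatty acid uptake and triglyceride synthesis with at least 20 UMIs, 7 were at least 2-fold lower in Casp8-mutant cells, 1 was higher and 9 were neither. Over all 9477 genes with 20 UMIs or more, 22.5% were 2-fold lower and 11.4% were 2-fold higher. Of the 2130 lower genes 645 had 0 UMIs in Casp8-mutant cells, and 1525 stayed lower with these set to a floor of 3 UMIs over the cells. The list median was -0.73 on the log2 scale, beside -0.22 over all those genes, or -0.12 with that floor. The fatty acid transporter Cd36 had 43.6 CPM in Casp8-mutant cells and 329 CPM in Mlkl-null cells, 7.15-fold lower (3.95 to 16.5). Dbi, which binds acyl-CoA, was 5.19-fold lower (4.39 to 6.24), at 640 CPM in Casp8-mutant cells and 3336 CPM in Mlkl-null cells. Among the acyltransferases that rebuild triglyceride, Dgat2 was lower at 698 and 1974 CPM and Mogat2 at 126 and 454 CPM in Casp8-mutant and Mlkl-null cells. The acyltransferases Dgat1, Gpat3, Gpat4 and Agpat2 of the same list were neither 2-fold lower nor 2-fold higher. The 1 higher gene was Lpin2, a phosphatidic acid phosphatase, which was 2.49-fold higher at 77.6 CPM against 31.9 CPM.

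Chylomicron assembly loads lipid onto apolipoprotein B. Of 12 of its genes, 2 were 2-fold lower in Casp8-mutant cells, 0 were higher and 10 were neither, a share no larger than the 22.5% of all genes that were lower, and the median log2 ratio was -0.59. Mttp, the transfer protein that lipidates apolipoprotein B, had 1406 CPM in Casp8-mutant cells and 1734 CPM in Mlkl-null cells, 1.23-fold lower (1.09 to 1.39). Apob itself was 1.63-fold lower (1.34 to 2.03), at 470.4 and 771 CPM. The members past the fold limit were Apoc2, the activator of lipoprotein lipase, at 1755 and 5792 CPM, and Sar1b, the small GTPase of chylomicron export from the endoplasmic reticulum, which was 3.19-fold lower. P4hb, a subunit of the Mttp complex, stood at 2507 and 2251 CPM, 1.11-fold higher. Scaling mattered for both Mttp and Apoa4, whose log2 ratios were -0.01 and -0.14 under median-of-ratios scaling.

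Retinol and cholesterol genes split by gene. Rbp2 had 2963 CPM in Casp8-mutant cells and 10718 CPM in Mlkl-null cells, 3.61-fold lower (3.34 to 3.93), with 13 of 138 Casp8-mutant cells at 0 UMIs. Lrat, which esterifies the retinol that Rbp2 carries, had 0 UMIs in Casp8-mutant cells and 207 in Mlkl-null cells, at least 5.90-fold lower against the floor of 3 UMIs. Isx, the transcription factor that represses intestinal vitamin A uptake, was higher instead, at 141 CPM in Casp8-mutant cells and 62.2 CPM in Mlkl-null cells, 2.29-fold (1.47 to 3.38). Of 9 retinoid genes measured, 4 were lower and 2 higher, with a median log2 ratio of -0.40, or 2 and 2 with a median of -0.11 when genes at 0 were set to that floor. Of 14 genes of cholesterol and bile acid handling, 1 was lower, 2 were higher and 11 were neither. Npc1l1, the cholesterol importer of the brush border, was 1.94-fold higher (1.48 to 2.497), at 335 CPM against 173 CPM. Nr1h4, the bile acid receptor FXR, was 2.39-fold lower, at 48.5 CPM against 121 CPM, and the synthesis enzymes Hmgcs1 and Fdps were 1.55-fold and 1.83-fold lower.

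Digestive enzymes and transporters of the brush border showed no common direction. Of 14 enzymes, 2 were higher in Casp8-mutant cells, 2 were lower and 10 were neither, and the median log2 ratio was 0.09. Anpep, an aminopeptidase, was 3.85-fold higher (3.49 to 4.22), at 2798 CPM in Casp8-mutant cells and 728 CPM in Mlkl-null cells. Lct, the lactase of the suckling intestine, was 4.19-fold lower (3.14 to 5.88), at 209 and 885 CPM, and after thinning it was detected in 19.2% of Casp8-mutant cells and 56.1% of Mlkl-null cells. Alpi and Ace, an alkaline phosphatase and a peptidase, differed by 1.10-fold higher and 1.17-fold lower. Among 15 nutrient transporters 2 were higher and 5 were lower, and the median log2 ratio was -0.24, or 3 were lower with genes at 0 set to the floor. The transporter subunit Slc3a1 and the phosphate transporter Slc34a2 were 2.37-fold and 2.69-fold higher. The glucose transporter Slc2a2 had 4 UMIs in Casp8-mutant cells and 241 in Mlkl-null cells, and the peptide transporter Slc15a1 was 3.54-fold lower at 48.5 CPM against 180 CPM. The microvillus list had a median of 0.33, with 12 of 14 genes inside the fold limit. Krt20, a keratin of mature villus cells, was 8.23-fold higher (6.01 to 11.2), and Pls1, a microvillus actin bundler, was 2.95-fold lower.

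Markers of position along the villus and along the gut were measured from lists chosen with earlier results of these data known. Of 8 villus tip genes, 6 were higher in Casp8-mutant cells, 0 were lower and 2 were neither, with a median of 1.39. Ada, Nt5e and Egfr, also on that list of 11, had under 20 UMIs and were not measured. Apobec1, which edits apolipoprotein B transcripts, was 5.99-fold higher at 160 CPM against 26.9 CPM, and Cdkn1a, a cell cycle inhibitor, was 3.14-fold higher at 286 CPM against 91.6 CPM. Of 6 proximal genes 4 were lower, 1 of them Fabp1, with a median of -1.65, or -1.08 with genes at 0 set to the floor. Onecut2, a proximal transcription factor, had 24.2 CPM in Casp8-mutant cells and 106 CPM in Mlkl-null cells. Of 9 distal genes, 8 were inside the fold limit. The other was Fabp6, higher at 213.4 CPM in Casp8-mutant cells against 49.7 CPM in Mlkl-null cells. The rule limits Fabp6 by a count of UMIs, and the Casp8-mutant cells were shallower. Of 23 enterocyte transcription factors, 18 were inside the fold limit, with Hnf4a at 213 CPM in Casp8-mutant cells and 110 CPM in Mlkl-null cells, 1.95-fold higher. The median of these factors was -0.08, and it was 0.21 under median-of-ratios scaling. That scaling also changed the sign of the medians of the transporter, cholesterol, distal and immediate-early lists.

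**Figure D2:**
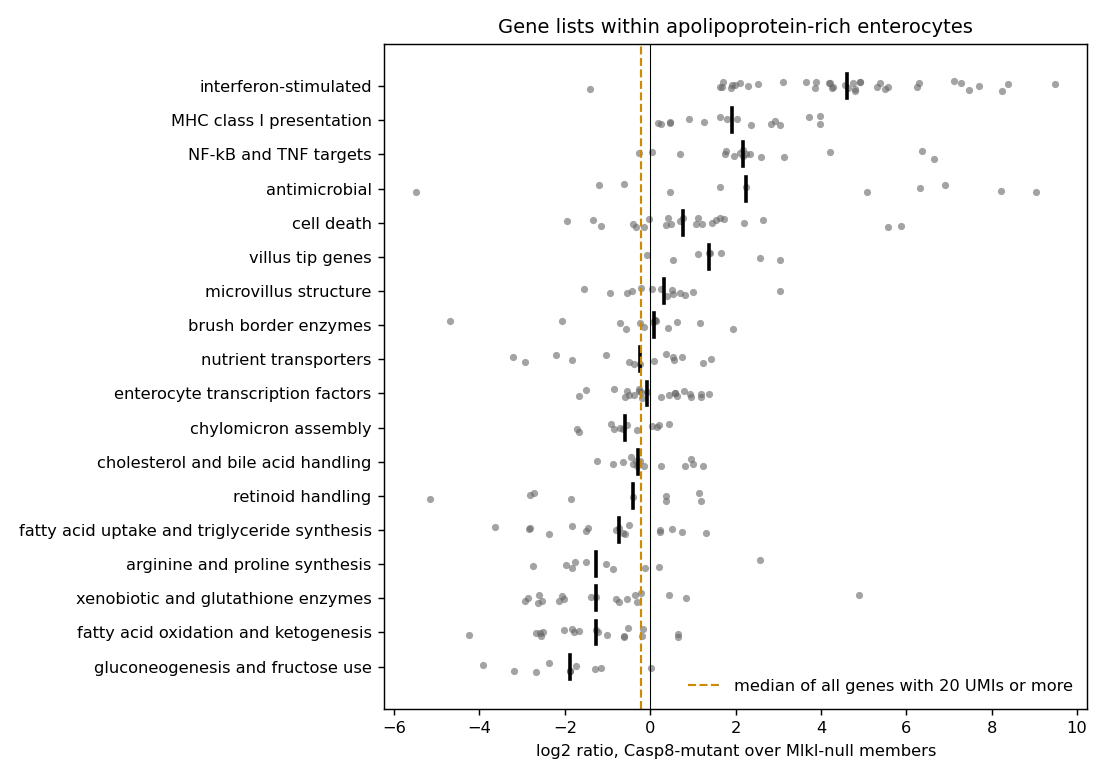
Log2 ratio of Casp8-mutant to Mlkl-null apolipoprotein-rich enterocytes for each gene with at least 20 UMIs, by gene list. Each point is a gene, black bars are list medians and the dashed line is the median of all 9477 genes. The interferon-stimulated list had the median 4.61, and the fatty acid oxidation list -1.27.

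Many genes of fat oxidation, glucose synthesis and citrulline synthesis were lower in Casp8-mutant cells. Of 19 genes of fatty acid oxidation and ketogenesis, 12 were lower, 0 were higher and 7 were neither, with a median log2 ratio of -1.27. Acaa2, the last enzyme of the beta-oxidation cycle, was 5.71-fold lower (4.03 to 8.69) at 141 CPM in Casp8-mutant cells and 816 CPM in Mlkl-null cells, and Pdk4, which spares glucose when fat is burnt, had 0 UMIs against 111, at least 3.16-fold lower. Acadl, an acyl-CoA dehydrogenase, differed the other way by 1.56-fold, at 626 CPM against 401 CPM. Of 10 genes of gluconeogenesis and fructose use, 9 were lower, with a median of -1.88, or 7 with a median of -1.31 when genes at 0 were set to the floor. Pck1, which makes phosphoenolpyruvate for glucose synthesis, had 5 UMIs in Casp8-mutant cells and 592 in Mlkl-null cells, 9.20-fold lower (4.31 to 31.3).

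Among the arginine and proline genes 6 of 10 were lower. Cps1, the mitochondrial enzyme that makes carbamoyl phosphate for citrulline, was 6.74-fold lower (5.15 to 9.18), at 242 CPM in Casp8-mutant cells and 1649 CPM in Mlkl-null cells. Oat and Ass1 were 2.83-fold and 2.04-fold lower, while Glul, glutamine synthetase, was 5.94-fold higher at 77.6 CPM against 13.3 CPM. Among 19 xenobiotic and glutathione genes 10 were lower, or 9 with genes at 0 set to the floor, and Gpx2, the gut glutathione peroxidase, was 29.6-fold higher (18.9 to 48.6), at 335 CPM in Casp8-mutant cells and 11.2 CPM in Mlkl-null cells. The metallothioneins Mt1 and Mt2, which bind zinc, were 4.02-fold and 4.84-fold lower, with Mt1 at 1130 CPM in Casp8-mutant cells and 4556 CPM in Mlkl-null cells.

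Across all 6241 genes with at least 50 UMIs over the apolipoprotein-rich cells of both libraries, 551 (8.83%) were at least 2-fold higher and 1389 (22.3%) at least 2-fold lower in Casp8-mutant cells. Of the lower genes 110 had 0 UMIs in Casp8-mutant cells, and a gene with 50 UMIs in all would have 3.94 of them there if its level were equal. The median log2 ratio was -0.29. With the libraries scaled so that the median gene did not differ, 867 genes were higher and 965 lower, so the share of lower genes depended on the scale. The 12 leading genes each way were ranked by the end of the 95% interval nearest to equal levels, after genes under 25% of their level in a group of at least 10 barcodes of another cell type in the same library had been left out. The 1 and 8 acinar barcodes of the Casp8-mutant and Mlkl-null libraries were too few for that comparison.

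The 12 lower leaders included secreted, brush border and metabolic genes of the enterocyte, beside genes of other functions and 1 pancreatic gene. Leap2, a liver and gut peptide that blocks the ghrelin receptor (chr11:53422181-53423170), had 1 UMI in Casp8-mutant cells and 784 in Mlkl-null cells, 4.85 CPM against 325 CPM, a 44.7-fold lower level (11.99 to 2649). Mme, the brush border endopeptidase neprilysin (chr3:63241537-63386030), had 1 UMI against 452, 25.8-fold lower (6.90 to 1529). Gatm, the first enzyme of creatine synthesis, was 12.4-fold lower (6.16 to 36.8) at 29.1 CPM against 391.5 CPM, and Ndrg1, a stress-responsive cytoplasmic protein, was 9.44-fold lower at 102 CPM against 984 CPM. Pdcd4, a translation inhibitor, Mrpl34, a mitochondrial ribosomal protein, and Sdf2l1, of the endoplasmic reticulum, were 12.1-fold, 11.7-fold and 9.81-fold lower, and Fabp1, Pck1, Cps1 and Dbi were described above. The last, Ctrb1, is the pancreatic enzyme chymotrypsinogen, and its 38.8 CPM in Casp8-mutant cells and 326 CPM in Mlkl-null cells lay below the 49.2 and 387 CPM of the haemoglobin barcodes, so it is read as free RNA. The acinar barcodes of the Mlkl-null library held 168453 CPM of Ctrb1.

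**Figure D3:**
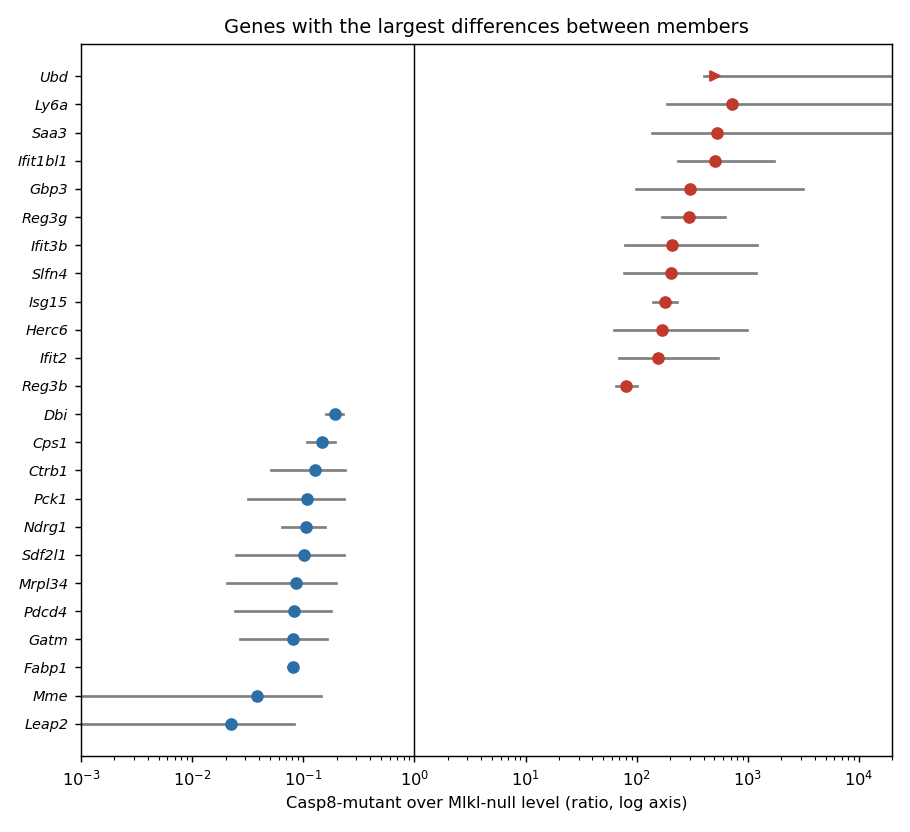
Ratio of Casp8-mutant to Mlkl-null level, on a log axis, for the 24 leading genes in apolipoprotein-rich enterocytes. Points are ratios of CPM, bars are 95% intervals of counting error, and the triangle marks Ubd, which had 0 UMIs in Mlkl-null cells and was at least 503-fold higher in Casp8-mutant cells.

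The 12 higher leaders were mostly genes that interferons or bacteria induce. Isg15, a ubiquitin-like modifier (chr4:156199424-156200818), had 1072 UMIs in Casp8-mutant cells and 70 in Mlkl-null cells. That is 5198 CPM against 29.0 CPM, 178-fold higher (141 to 232), and after thinning it was detected in 97.7% (93.4 to 99.5) of Casp8-mutant and 2.39% (1.40 to 3.80) of Mlkl-null cells. Haemoglobin barcodes, by comparison, held 1231 CPM in the Casp8-mutant and 187 CPM in the Mlkl-null library, with detection in 57.7% and 7.69%. Isg15 was thus above these barcodes in Casp8-mutant enterocytes and below them in Mlkl-null ones. Goblet barcodes of the Mlkl-null library held only 2.75 CPM, so its haemoglobin barcodes give no floor of free RNA for Isg15. Ubd, another ubiquitin-like modifier (chr17:37193892-37196095), had 129 UMIs against 0 and was at least 503-fold higher. Ifit1bl1, of the Ifit family that binds foreign RNA, was 505-fold higher (234 to 1724) at 1149 CPM against 2.07 CPM. Ly6a, the surface protein Sca-1, had 92 UMIs against 1. Reg3b and Reg3g, secreted antibacterial lectins, were 80.2-fold (65.4 to 100.1) and 297-fold (170.5 to 627) higher, with Reg3b at 3404 CPM in Casp8-mutant cells and 42.3 CPM in Mlkl-null cells. The others were Saa3, an acute-phase protein, with 67 UMIs against 1, Gbp3 with 64 against 2, Ifit3b with 62 against 3, Slfn4 with 61 against 3, Ifit2 with 73 against 5 and Herc6 with 50 against 3. For near-identical copies such as Ifit3 and Ifit3b, the way shared reads were assigned is not stated, so the split between them is uncertain.

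The wider list of interferon-stimulated genes was higher in Casp8-mutant cells with 1 exception. Of 38 interferon-stimulated genes with at least 20 UMIs, 37 were at least 2-fold higher in Casp8-mutant cells and 1 was lower, with a median log2 ratio of 4.61. The list took a median of 1.97% of UMIs per Casp8-mutant cell (0.634 to 5.05) and 0.115% per Mlkl-null cell (0 to 2.16), so the lowest Casp8-mutant cell lay above the Mlkl-null median. Ifit1 had 2037 CPM in Casp8-mutant cells and 140.5 CPM in Mlkl-null cells, 14.5-fold higher (12.5 to 16.8). Irf7, the transcription factor that amplifies type I interferon, was 18.2-fold higher at 1154 CPM against 63.4 CPM. Bst2, the surface tether of enveloped viruses, was 30.0-fold higher at 1382 CPM against 46.0 CPM. The gene that was lower was Ifi27, with 3 UMIs in Casp8-mutant cells and 108 in Mlkl-null cells.

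Antigen presentation on MHC class I showed the same direction. Of 16 genes measured, 11 were higher, 0 were lower and 5 were neither, with a median of 1.92. B2m, the invariant light chain, was 8.21-fold higher (7.43 to 9.07), at 3307 CPM in Casp8-mutant cells and 403 CPM in Mlkl-null cells. The heavy chains H2-D1 and H2-K1 were 7.16-fold and 3.49-fold higher, and Tap1 and Psmb8, which import and cut the peptides, were 15.7-fold and 13.3-fold higher. The chaperone Calr, which serves all secreted proteins, was 1.196-fold higher at 1736 CPM against 1453 CPM.

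Of 16 NF-kB and TNF target genes, 13 were higher, 0 were lower and 3 were neither, with a median of 2.18. Nfkbia, the inhibitor that NF-kB itself induces, was 4.53-fold higher (3.33 to 6.06) at 310.3 CPM in Casp8-mutant cells and 68.8 CPM in Mlkl-null cells. The chemokine Cxcl2 had 519 CPM in Casp8-mutant cells, but the haemoglobin barcodes of that library held 487 CPM, so its level there is near that of free RNA. Sod2 and Nfkbiz, which NF-kB can also induce, were inside the fold limit at 97.0 CPM against 95.7 CPM and 67.9 CPM against 83.7 CPM. Of 11 antimicrobial genes 7 were higher and 2 were lower, the lower ones being Leap2 and Reg4.

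Cell death genes include the ones changed in these embryos. Of 23 measured, 11 were higher in Casp8-mutant cells, 3 were lower and 9 were neither, with a median log2 ratio of 0.76. Casp8 was 2.72-fold higher (1.93 to 3.71), at 233 CPM in Casp8-mutant cells and 86.2 CPM in Mlkl-null cells. Zbp1, a nucleic acid sensor that acts with Ripk3 and is itself interferon-induced, was 47.5-fold higher (22.6 to 124), with 34 UMIs against 8. Ripk3, the kinase upstream of Mlkl, was 3.13-fold higher, and the inflammatory caspases Casp1 and Casp4 were 4.62-fold and 6.25-fold higher. Pycard, the inflammasome adaptor, was 2.55-fold lower (1.90 to 3.60) at 204 CPM against 526 CPM, and Casp6 was 2.23-fold lower.

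Several of these differences were also present outside the apolipoprotein-rich cells. In epithelial barcodes with under 2% apolipoprotein and 0 to 2 Fabp6 UMIs, 255 in the Casp8-mutant and 327 in the Mlkl-null library, Isg15 had 1262 and 5.61 CPM and B2m had 1211 and 218 CPM. The Isg15 level of the Casp8-mutant barcodes there is near the 1231 CPM of that library's haemoglobin barcodes, while the B2m levels are above the 476 and 83.0 CPM of the haemoglobin barcodes. The summed interferon list was 21118 CPM in Casp8-mutant apolipoprotein-rich cells and 1272 CPM in Mlkl-null ones, against 9348 and 666 CPM in those low-apolipoprotein barcodes. In the 18 Casp8-mutant and 43 Mlkl-null enterocytes that met the rule's other limits but held 3 or more Fabp6 UMIs, it was 23551 and 764 CPM. The high level in the Casp8-mutant library was therefore not particular to the cells without Fabp6. The list took 2.11% of UMIs in Casp8-mutant and 0.127% in Mlkl-null apolipoprotein-rich cells, against 0.362% and 0.0623% in the haemoglobin barcodes. Reg3b went the other way between epithelial groups, with 3404 CPM in apolipoprotein-rich cells and 5751 CPM in low-apolipoprotein barcodes of the Casp8-mutant library, and Ly6a did so too at 446 and 1087 CPM. Ubd was higher in the apolipoprotein-rich cells, at 626 CPM against 47.4 CPM. Of 9990 genes with at least 50 UMIs over the 4 groups, 532 (5.33%) were 2-fold higher and 1632 (16.3%) 2-fold lower in apolipoprotein-rich cells than in low-apolipoprotein barcodes of both libraries. These contrasts follow the rule that chose the cells and are a description.

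**Figure D4:**
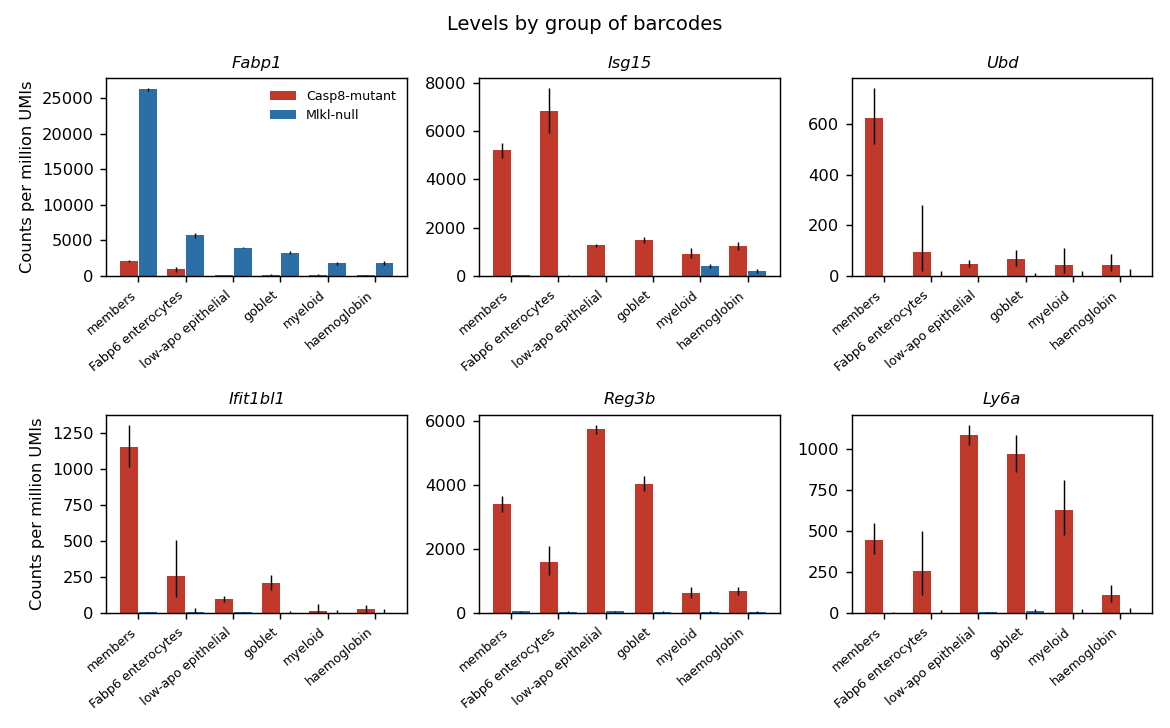
Level of 6 genes in CPM, with 95% Poisson intervals, in 6 groups of barcodes of the Casp8-mutant and Mlkl-null libraries. In apolipoprotein-rich cells Isg15 stood at 5198 CPM in the Casp8-mutant library and 29.0 CPM in the Mlkl-null library, and Reg3b at 3404 and 42.3 CPM.

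Within the group, cells were split by apolipoprotein share into 2 to 4%, 4 to 8% and 8% or more, holding 63, 56 and 19 Casp8-mutant cells and 356, 268 and 87 Mlkl-null cells. Rbp2 had 2264.5, 3670.4 and 3743 CPM along these ranges in Casp8-mutant cells and 8738, 13509 and 13779 CPM in Mlkl-null cells, so the Casp8-mutant level was lower in each range. Fabp1 was also lower in Casp8-mutant cells in each range, with 1598, 2504 and 2963 CPM there and 23441, 31391 and 25031 CPM in Mlkl-null cells. Unlike Rbp2, Fabp1 was highest in the middle range of the Mlkl-null cells. B2m was higher in cells with more apolipoprotein, at 2388, 3485 and 6550 CPM in Casp8-mutant cells and 325, 448 and 801 CPM in Mlkl-null cells. Ribosomal protein genes went the other way, at 48658, 31139 and 22807 CPM in Casp8-mutant cells and 66151, 46160 and 27115 CPM in Mlkl-null cells. Reg3b was lower with more apolipoprotein in Casp8-mutant cells, at 4053, 3140 and 1520 CPM. Leap2 and Pck1 were higher in Mlkl-null cells with more apolipoprotein, Leap2 at 181, 484 and 737 CPM and Pck1 at 157, 327 and 566 CPM. Median depth per cell also differed along the ranges, at 1514, 1221.5 and 1208 UMIs in Casp8-mutant cells and 3999.5, 3001.5 and 2102 UMIs in Mlkl-null cells, and its part in these values was not tested.

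**Figure D5:**
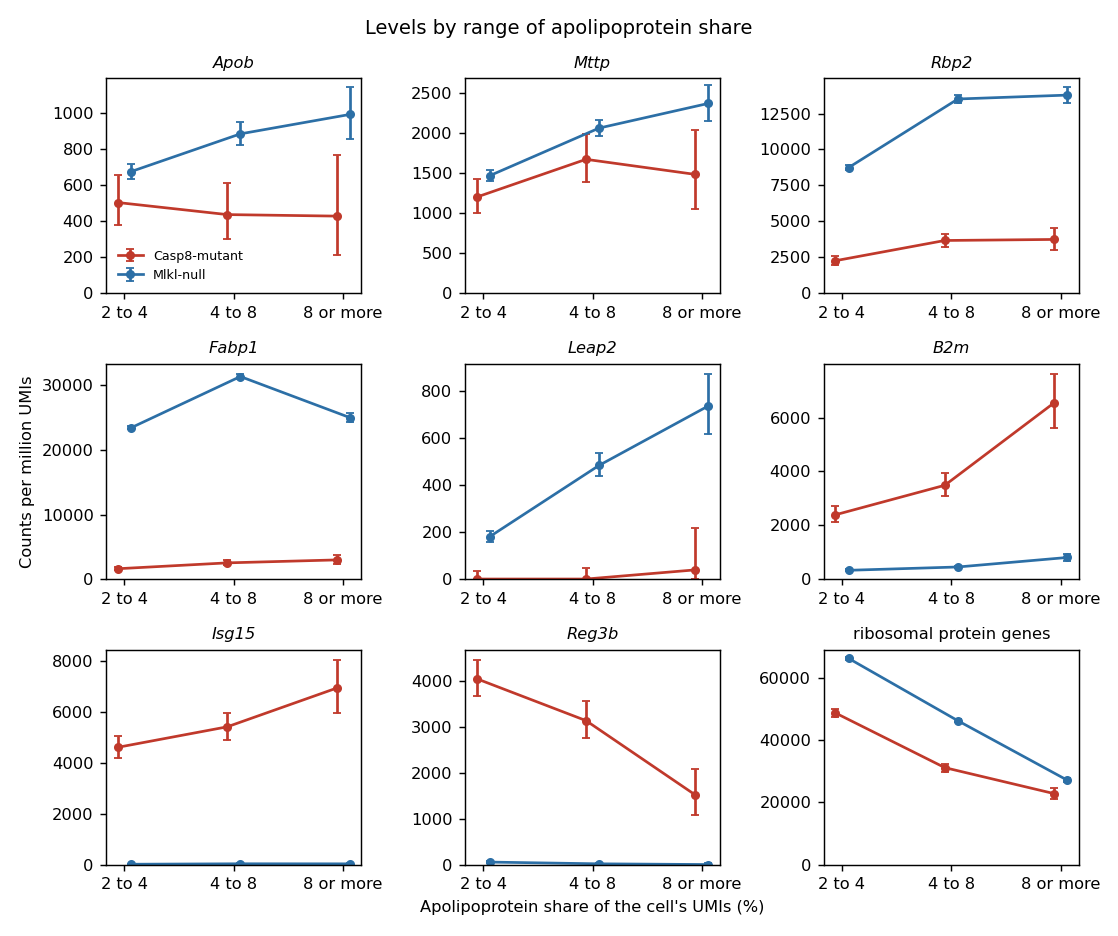
Level in CPM of 8 genes and of the summed ribosomal protein genes in apolipoprotein-rich enterocytes with 2 to 4%, 4 to 8% and 8% or more of their UMIs from the 3 apolipoproteins, with 95% Poisson intervals. B2m was at 6550 CPM in the upper range of the Casp8-mutant library and 801 CPM in that of the Mlkl-null library.

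Enterocytes that met the same limits but held 3 or more Fabp6 UMIs numbered 18 in the Casp8-mutant library and 43 in the Mlkl-null library. Of 6532 genes with at least 50 UMIs over the 4 groups, 92 (1.41%) were 2-fold higher in the cells without Fabp6 in both libraries and 68 (1.04%) were 2-fold lower, and the rule that split the cells makes this a description. Fabp1 was higher in the cells without Fabp6, at 2100 against 923 CPM in the Casp8-mutant library and 26212 against 5722 CPM in the Mlkl-null library. The 6 genes that led by the smaller of the 2 ratios were Tubb2a, Etv3, Dusp1, Ephx2, Sec24d and Slc25a22. Several of these rest on few counts, such as Tubb2a with 37 and 66 UMIs in cells without Fabp6 and 0 in those with it, in both libraries. Of the 68 lower genes 4 passed the limits for naming, which ask for 100 CPM in 1 library and bar genes of other cell types. They were Abcb1a and Abcg2, efflux pumps for drugs and other foreign compounds, and Cyp51 and Fdps, enzymes of sterol synthesis. The limits on UMIs and CPM were put on the cells without Fabp6, so a lower gene that was rare in those cells could not be named. Abcb1a stood at 0.263 and 0.407 of its level in the Fabp6-expressing cells, and Fdps at 0.292 and 0.386, in the Casp8-mutant and Mlkl-null libraries.

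RNA of other cell types and signs of RNA state also differed between the libraries. Malat1, a nuclear RNA, took a median of 9.54% of UMIs per Casp8-mutant cell and 2.89% per Mlkl-null cell, and 117 of 138 Casp8-mutant cells were at or above 5%. In the 21 Casp8-mutant and 573 Mlkl-null cells under 5% the log2 ratios were -3.30 for Fabp1, -1.47 for Rbp2, 7.03 for Isg15 and 2.52 for B2m. Anpep was inside the fold limit there at 0.84, and the gluconeogenesis median was -0.65. Haemoglobin took 1.09% and 0.283% of UMIs, and the summed erythroid list stood at 14450 and 2867 CPM, with 5 of 5 measured genes higher in Casp8-mutant cells. All 7 granulocyte genes measured were higher, at 4437 CPM in Casp8-mutant cells and 50.1 CPM in Mlkl-null cells, and the list took 0.444% of UMIs in both the Casp8-mutant enterocytes and the haemoglobin barcodes of that library. S100a8 and S100a9 were left out of the leading genes for that reason, at 5.83% and 3.07% of their granulocyte level. Goblet genes took 0.464% of UMIs in Casp8-mutant enterocytes and 0.331% in haemoglobin barcodes. Myeloid markers summed to 863 and 369 CPM and fibroblast markers to 116 and 46.0 CPM, while pancreatic acinar markers were higher in Mlkl-null cells, at 87.3 CPM in Casp8-mutant and 707 CPM in Mlkl-null cells. No lymphoid or enteric neuron marker reached 20 UMIs. How much these other cell types add to the enterocyte levels was not tested.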

How the data were processed

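The 2 deposited matrices hold raw UMI counts per gene and barcode, per the labels' 10x 3' v2 protocol and as whole numbers. Tools listed in the submitters' processing notes are Seurat 3.0 and Cell Ranger 3.0.2, with mm10 as the genome, and what each did or how barcodes were filtered is not stated. Of 52636 gene IDs, 52403 had a symbol in GENCODE M21, which also gave the coordinates. The members, gene lists and rules were chosen with earlier results of these data known, and the limits of Malat1 under 5% and 500 UMIs were added after seeing the data.

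Genotype was taken from the labels, with 1 embryo and 1 library each. UMIs were summed over the cells of a group and library and divided by the group's total to give CPM. Ratios used sums with 0.5 UMI added, and a gene was called different at a 2-fold ratio with at least 50 UMIs, or 20 within lists; no p-value was computed. Intervals at 95% were exact: Poisson for levels, conditional binomial for ratios and Clopper-Pearson for shares. A 3' tag counts a transcript once, so no division by length was made. Detection was compared after thinning cells to 1000 UMIs, which left out 8 Casp8-mutant cells. Scrublet called 2 and 4 barcodes as doublets in the Casp8-mutant and Mlkl-null libraries, too few to have worked as a caller, and none were removed. 

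Named genes had at least 50 UMIs over the apolipoprotein-rich cells of both libraries and 100 CPM in those of 1 library. Mitochondrial, ribosomal protein, haemoglobin, sex-linked, predicted and rule genes were left out, as were genes under 25% of their level in a group of at least 10 barcodes of another cell type of the same library, a minimum that the acinar barcodes did not reach. The 12 highest and 12 lowest were ranked by the interval's end nearest to equality, and the 6 each way against Fabp6-expressing cells by the smaller ratio. Up to 4 genes of each list with the most UMIs were looked at too, and other genes printed from a list were chosen after their values were seen. Python 3.11.15, numpy 2.4.6, pandas 2.3.3, scipy 1.17.1, scanpy 1.11.5 and matplotlib 3.10.9 were used, and the code was tested on simulated counts. Alternatives changed the apolipoprotein, Fabp6 and gene limits, depth, doublets, free RNA, scaling, weight of cells, count minimum and fold. Values of a few list genes are not reported here.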

Additional observations from a re-analysis of the deposited data

Results flagged for a closer look

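For 4 of 346 genes looked at, the Casp8-mutant level was at least 2-fold higher in apolipoprotein-rich enterocytes and at least 2-fold lower in low-apolipoprotein epithelial barcodes. The difference between the groups was not tested. Abcb1a, a drug efflux pump, had a ratio of 4.54 in the enterocytes, at 136 CPM in Casp8-mutant and 30.2 CPM in Mlkl-null cells, and 0.295 in the low-apolipoprotein barcodes. Slc34a2, a phosphate transporter, had 2.69 and 0.479, with 495 CPM in Casp8-mutant and 185 CPM in Mlkl-null enterocytes. Ttr, which carries thyroid hormone and retinol in plasma, had 2.14 and 0.324, with 815 CPM in Casp8-mutant and 381 CPM in Mlkl-null enterocytes. Meg3, an imprinted long noncoding RNA, had 2.49 and 0.414, with 349 CPM in Casp8-mutant and 141 CPM in Mlkl-null enterocytes.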

How the results depend on the processing

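No paired analysis was possible because each genotype has 1 library. The share of these enterocytes in the Casp8-mutant and Mlkl-null libraries was 21.9% and 58.7% with the apolipoprotein limit at 1%, 8.57% and 24.7% at 4%, 11.9% and 42.3% with Fabp6 at 0 UMIs, and 2.40% and 39.8% with Malat1 under 5%; with 1000 genes it was 5.56% in the Casp8-mutant library. The lower share in the Casp8-mutant library held under the other limits, but the Malat1 values cannot show it. That limit was put on these cells and not on all the barcodes they were divided by. It removed 117 of 138 Casp8-mutant and 138 of 711 Mlkl-null cells. The 551 genes higher in Casp8-mutant cells became 323 at 4% apolipoprotein, 242 after thinning, 848 with Malat1 under 5%, 867 by median-of-ratios scaling, 1082 with 20 UMIs, 8828 with no minimum, 56 with 500 UMIs and 1069 at 1.5-fold. The 1389 lower genes became 817 at 4%, 627 after thinning, 2130 with 20 UMIs, 2734 with no minimum, 220 with 500 UMIs and 2298 at 1.5-fold. Against Fabp6-expressing enterocytes the 92 higher genes became 12 at 4%, 21 with Fabp6 at 0 UMIs, 44 with 1000 genes, 11 with 500 UMIs and 262 at 1.5-fold. The 68 lower genes became 338 at 4%, 10 with Fabp6 at 0 UMIs, 162 after thinning, 40 by median of ratios, 371 with 20 UMIs, 7877 with no minimum, 4 with 500 UMIs and 394 at 1.5-fold. With no minimum, the 0.5 UMI added to groups of unequal totals passes the 2-fold limit by itself for many genes with few or 0 UMIs. The 8828 and 7877 genes are therefore not read as differences. Against Fabp6-expressing cells this holds at any minimum for a gene at 0 UMIs in both Casp8-mutant groups, whose totals were 206221 and 31421 UMIs. Fewer genes or cells enter under the stricter limits, and causes beyond these were not tested. Malat1 under 5% left 0 Casp8-mutant Fabp6-expressing enterocytes, so no value could be given there. Among 22 list medians and 96 named genes of 2-fold or more, signs reversed for the colon list (1.24) and the sex-linked list (3.62) after thinning and for Cyp51 (0.0226) with Malat1 under 5%. A move was a value past the counting interval of a gene, or 0.5 or more for a list median (log2). Malat1 under 5% moved 74 named genes and 16 list medians, and 1000 genes moved 61 and 12. Median-of-ratios scaling moved 51 named genes. That scaling subtracts the same -0.286 from every log2 ratio, short of the 0.5 limit, so it could move no list median. Depth is a limit, since a gene with 20 UMIs in all would have 1.57 in Casp8-mutant cells at equal levels.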

Other observations

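Proliferation was low in these enterocytes in both libraries, with the list summing to 218 CPM in Casp8-mutant and 190 CPM in Mlkl-null cells, against 1304 and 1361 CPM in low-apolipoprotein epithelial barcodes. Of 13 endoplasmic reticulum stress genes, 2 were higher in Casp8-mutant cells, 3 were lower and 8 were neither. Ddit3, the stress transcription factor CHOP, was 3.46-fold higher (2.57 to 4.56), while the chaperone Hspa5 stood at 247 CPM in Casp8-mutant and 294 CPM in Mlkl-null cells, and Herpud1, of the degradation pathway, was 5.11-fold lower. Of 8 iron genes, 1 was higher and 2 were lower. Over all 9477 genes with 20 UMIs or more, 11.4% were higher and 22.5% lower. The counts of the stress and iron lists are near those shares and do not set either list apart. Ferroportin, Slc40a1, which exports iron from the cell, was close at 466 CPM in Casp8-mutant and 414 CPM in Mlkl-null cells. Heph, the ferroxidase that works with it, was 2.64-fold higher, and the transferrin receptor Tfrc was 2.68-fold lower. Cldn4, a tight junction claudin, was 5.07-fold higher (4.21 to 6.08), at 829 CPM in Casp8-mutant and 164 CPM in Mlkl-null cells, while its relative Cldn7 was alike at 1072 and 968 CPM.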
